A study of Mus musculus with 12 samples.

Results

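The genes described here are 9 transcription factors linked to atrial identity or to the risk of atrial fibrillation: *Tbx5*, *Tbx20*, *Nkx2-5*, *Gata4*, *Gata6*, *Nr2f2*, *Mef2c*, *Prrx1* and *Zfhx3*. They were taken by name from a table of read counts that lists 54658 gene names, and all 9 were found and passed the filter on low counts. The counts come from RNA-sequencing of the mouse left atrium (LA) with Notch signaling switched on in cardiomyocytes (iNICD) or not (control), 6 mice per group, each LA as its own library. iNICD mice carried *αMHC-rtTA*, in which a cardiomyocyte promoter drives the reverse tetracycline transactivator, together with *tetO-NICD*, the intracellular domain of Notch1 under tetracycline control. Controls were littermates that carried *αMHC-rtTA* alone. Both groups were on a mixed genetic background, were 2 to 3 months old and received doxycycline chow for 3 weeks with no washout, so that the transactivator and the drug were common to both. Of the controls 4 were female and 2 male, and of the iNICD mice 3 were of either sex. The comparison asks which of these regulators of the atrial program differed in level after Notch activation.

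In the heart, the T-box proteins TBX5 and TBX20, the homeodomain protein NKX2-5 and the zinc finger proteins GATA4 and GATA6 bind DNA together at many cardiac enhancers. They keep genes for contraction, conduction and calcium handling active in adult cardiomyocytes. NR2F2, also known as COUP-TFII, is a nuclear receptor that sets atrial rather than ventricular identity, and MEF2C is a MADS-box factor of muscle genes. PRRX1 is a homeodomain protein best known from mesenchymal cells, and ZFHX3 is a large zinc finger and homeodomain protein. Human variants near most of these genes are associated with atrial fibrillation. The Notch intracellular domain acts in the nucleus with the DNA-binding protein RBPJ, and among its direct targets are the HES and HEY repressors.

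The transgene was read out first. *Notch1*, counted together with the transgene derived from it, rose from 118 ± 9.99 normalized CPM (counts scaled to a common library total; SD, n = 6) in controls to 3401 ± 441 in iNICD (n = 6), and no library went against its label. *Hes1*, a direct Notch target, rose from 20.8 ± 4.79 to 87.5 ± 5.90 CPM. Libraries held 21555678 to 26902478 counts in controls and 21432632 to 27182038 in iNICD, so that even *Zfhx3*, the lowest of the 9 genes, had 139 to 249 reads per library. One library stood apart: in control replicate 5, a male, 13.2% of the tested genes differed by 2-fold or more from the rest of its group, while this share was 1.62% to 3.41% in each of the remaining 11 libraries. Without this library the log2 fold changes of *Tbx20*, *Mef2c*, *Gata4*, *Gata6*, *Nkx2-5* and *Zfhx3*, described below, were 0.29, 0.24, 0.20, 0.07, −0.01 and −0.05, none of which passed. Defining markers of cardiomyocytes were abundant in every library, with summed levels of 52812 to 57366 CPM in controls and 47921 to 54618 in iNICD.

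*Tbx5* was the only gene of the 9 to pass the test, and it was lower in iNICD. In controls the lowest library had 348 CPM, the median was 410 and the highest was 578. In iNICD the lowest had 226 CPM, the median was 273 and the highest was 294. The groups did not overlap: every iNICD library lay below every control. The mean fell by 37.3%, from 427.5 ± 82.3 CPM to 267.8 ± 24.8 (SD, n = 6 per group). As a log2 fold change this was −0.67 (standard error, SE, 0.12), with a 95% interval of −0.93 to −0.42 (edgeR quasi-likelihood test, Benjamini-Hochberg adjusted p = 0.00494 over 13541 genes). The two-sided exact permutation test of the CPM values gave p = 0.00216, the smallest that 6 against 6 libraries allow. Of all genes tested, 1.34% were lower and 2.78% higher at this threshold, and 1.25% had every iNICD library below every control. The highest control value was that of replicate 5, and leaving it out gave a log2 fold change of −0.57 (adjusted p = 0.00136). In this whole tissue, fewer cells that express a gene and less RNA per cell cannot be told apart.

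**Figure D1:**
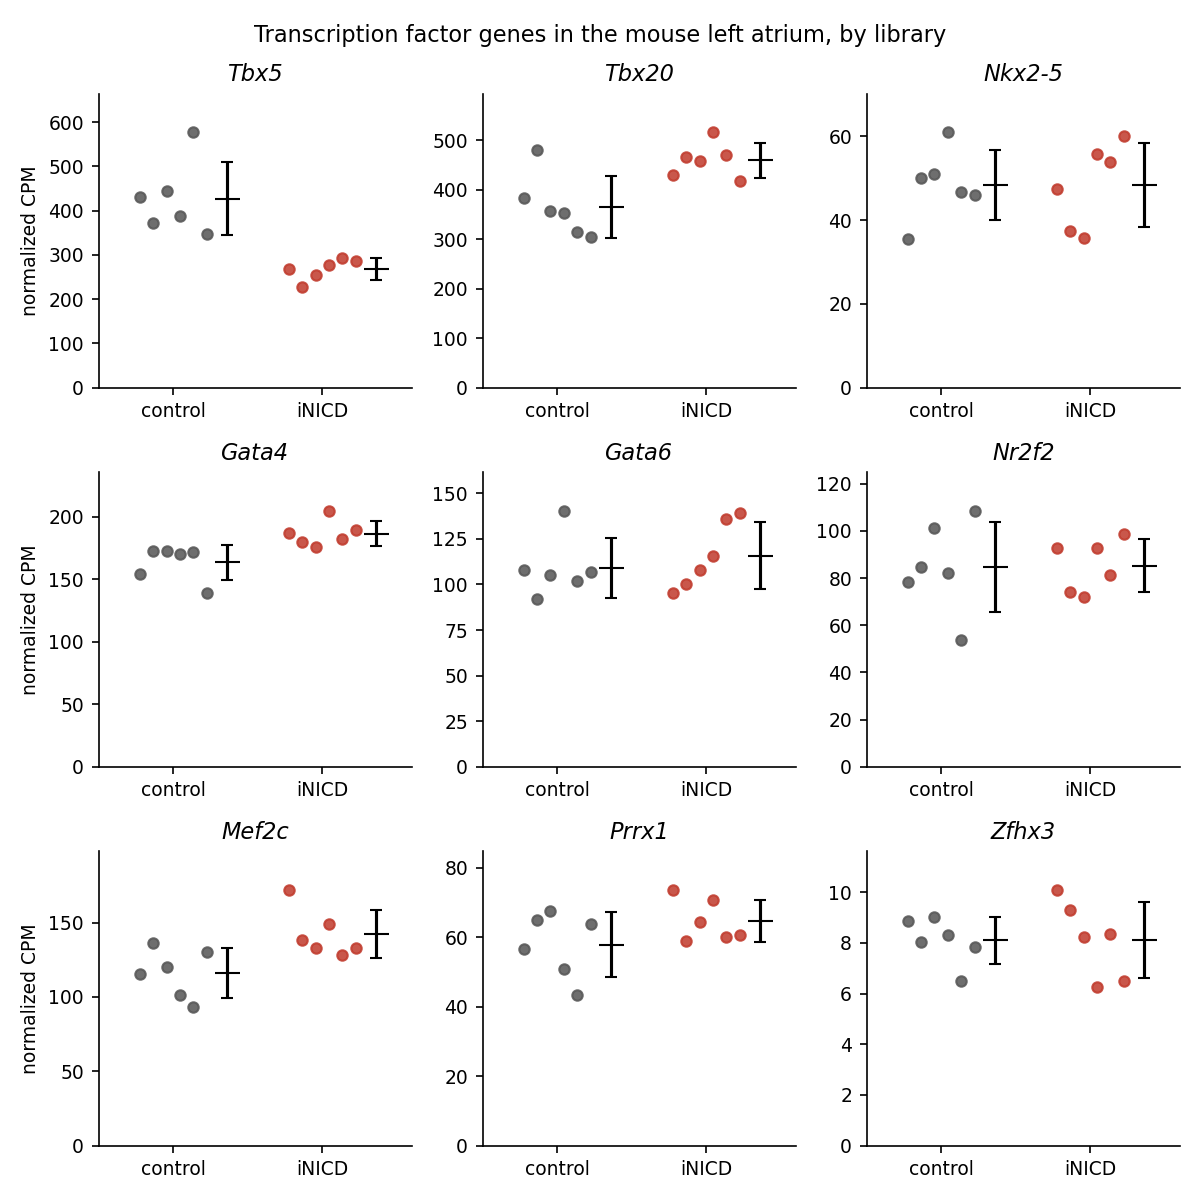
Normalized CPM (vertical axes, each from 0) of the 9 transcription factor genes in each of the 6 control (gray) and 6 iNICD (red) LA libraries, with the mean and SD beside them. For *Tbx5* the 6 iNICD libraries lie at 226 to 294 CPM, below all controls at 348 to 578, and for *Gata4* they lie at 176 to 205 CPM, above all controls at 139 to 173, although only *Tbx5* passed the adjusted test.

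The other T-box gene of the list, *Tbx20*, had higher values in iNICD that did not pass the test. Controls ran from 306 CPM through a median of 356 to 480, and iNICD from 418 through 462 to 517. The groups overlapped through 1 library, control replicate 2, which had the highest control value. The means were 365.9 ± 62.8 and 459.9 ± 35.1 CPM (n = 6 each). The log2 fold change was 0.33 (95% interval 0.11 to 0.55, edgeR adjusted p = 0.107), and the exact permutation test gave p = 0.0152 before adjustment for other genes. Without control replicate 2 the log2 fold change was 0.42 and passed (edgeR adjusted p = 0.0112), and DESeq2 on all libraries also called it (0.32, adjusted p = 0.0358), where it called 4.55% of genes higher and 7.84% in either direction.

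*Gata4* had a small difference with little scatter. Its control libraries lay at 139 to 173 CPM with a median of 171.5, and its iNICD libraries at 176 to 205 CPM with a median of 185. Every iNICD library was above every control, a separation in either direction that 3.83% of all tested genes showed. The mean was 14.1% higher, 186.7 ± 10.2 against 163.6 ± 14.0 CPM (n = 6 each). The log2 fold change of 0.19 (95% interval 0.05 to 0.33) did not pass the adjusted test of edgeR (p = 0.147), while the exact permutation test of this single gene gave p = 0.00216. *Gata6*, its paralog in the myocardium, had 91.9 to 140 CPM in controls and 95.2 to 139 in iNICD. These ranges nearly coincide, and the log2 fold change was 0.09 (95% interval −0.17 to 0.34, edgeR adjusted p = 0.743), with 0.03 to 0.17 over the fits without 1 library; it was highest without control replicate 4, whose *Gata6* was the highest of the controls, and lowest without iNICD replicate 6.

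*Mef2c* also had higher values in iNICD without passing. Its control libraries had 93.6 to 136 CPM (median 118) and its iNICD libraries 128 to 172 CPM (median 136). In 3 of 6 iNICD libraries *Mef2c* exceeded every control. The log2 fold change was 0.29 (95% interval 0.07 to 0.51, edgeR adjusted p = 0.149; exact permutation p = 0.0195). *Prrx1* had 43.5 to 67.5 CPM in controls and 58.9 to 73.6 in iNICD, with the lowest value in control replicate 5. Its log2 fold change was 0.16 (95% interval −0.07 to 0.39, edgeR adjusted p = 0.467), and 0.09 without that library (adjusted p = 0.636).

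For *Nkx2-5*, *Nr2f2* and *Zfhx3* the group means nearly coincided. *Nkx2-5* had a mean of 48.4 CPM in both groups, with SDs of 8.28 and 10.05, and libraries of 35.6 to 61.1 CPM in controls and 35.8 to 60.2 in iNICD. The 95% interval of its log2 fold change, −0.32 to 0.32, bounds a change in either direction. *Nr2f2*, the determinant of atrial identity, had 84.7 ± 19.2 CPM in controls and 85.3 ± 11.1 in iNICD (95% interval −0.31 to 0.33). Its lowest control, at 53.6 CPM, was again replicate 5, and without it the log2 fold change was −0.09 (edgeR adjusted p = 0.717). *Zfhx3* had 8.10 ± 0.92 CPM in controls and 8.12 ± 1.504 in iNICD (95% interval −0.28 to 0.29). The edgeR adjusted p-values of these genes, in that order, were 1.00, 0.981 and 0.994, and a p above the threshold does not show equal levels.

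**Figure D2:**
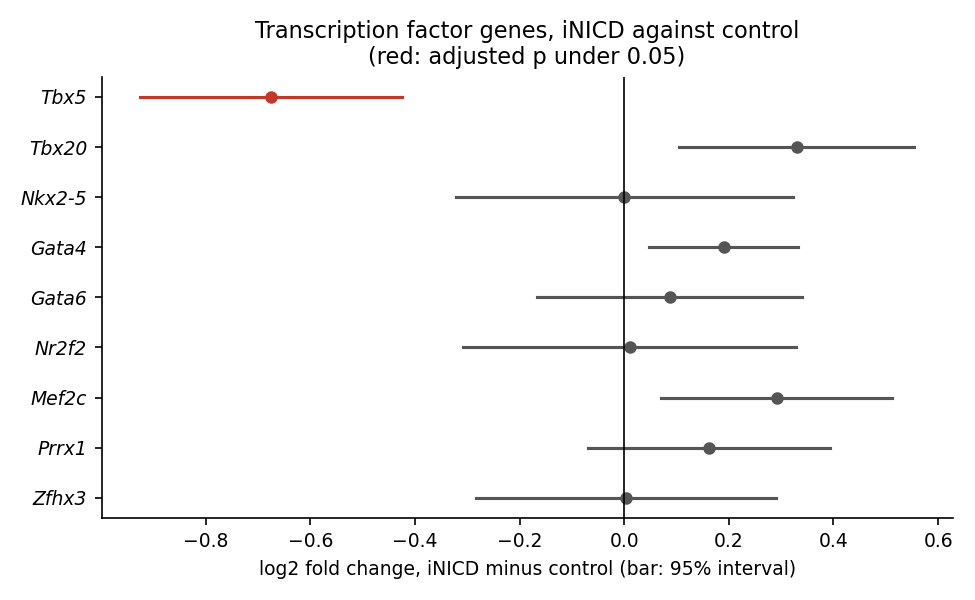
Log2 fold change, iNICD minus control, of the 9 transcription factor genes (points) with 95% intervals (bars) from the edgeR fit over 12 libraries; red marks an adjusted p under 0.05. *Tbx5* is at −0.67, and the other 8 lie between 0.00 and 0.33, with the intervals of *Tbx20*, *Gata4* and *Mef2c* above 0 before adjustment.

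Counted together, 1 of the 9 genes was lower and 0 were higher, where 4.12% of all tested genes were called in either direction. At an unadjusted edgeR p under 0.05 there were 4 (*Tbx5*, *Tbx20*, *Gata4* and *Mef2c*), where 17.4% of all tested genes reached that level. The estimated log2 fold change was negative for *Tbx5* and above 0 for the 8 others, with a median of 0.09 over the 9 genes against −0.01 over all tested genes. Without control replicate 2 the median of the 9 genes was 0.04. For *Nkx2-5*, *Nr2f2* and *Zfhx3* the sign was not stable: it was the other one in 19, 9 and 15 of 30 alternative fits.

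Levels were compared between genes per length, as RPKM, the CPM divided by the gene length in kilobases. In the control LA *Tbx5* was the most abundant of the 9, at 91.4 ± 17.6 RPKM (n = 6). *Gata4* followed at 41.9 ± 3.58, *Nkx2-5* at 31.7 ± 5.43 and *Tbx20* at 30.5 ± 5.24 RPKM. The ranges over libraries of *Gata4* and *Nkx2-5* overlapped, as did those of *Nkx2-5* and *Tbx20*, whereas *Tbx5* lay above *Gata4* in range. Below them came *Gata6* at 16.7 ± 2.52 RPKM, *Nr2f2* at 9.82 ± 2.23, *Mef2c* at 7.39 ± 1.05, *Prrx1* at 5.23 ± 0.85 and *Zfhx3* at 0.39 ± 0.04. In iNICD *Tbx5* stood at 57.3 ± 5.30 RPKM and *Gata4* at 47.8 ± 2.61, and their ranges now overlapped. Per length, *Tbx5* nevertheless remained first and *Gata4* second within each of the 12 libraries. This order depends on the gene lengths: in CPM, *Tbx20* (418 to 517) lay above *Tbx5* (226 to 294) in iNICD. The share of *Tbx5* in the summed RPKM of the 9 genes was 38.9% in controls and 26.3% in iNICD.

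Ratios within a library do not depend on how libraries are scaled to each other. The ratio of *Tbx5* to *Tbx20* reads per kilobase was 2.99 in controls (geometric mean; libraries 2.00 to 4.70) and 1.49 in iNICD (1.25 to 1.77). All 6 iNICD libraries lay below all controls, and the difference of −1.002 on the log2 scale passed (two-sided exact permutation test, p = 0.00216, adjusted p = 0.00433 over the 4 ratios). The ratio of *Tbx5* to *Gata4* went from 2.16 to 1.20, a log2 difference of −0.85, again with 6 of 6 libraries below all controls (exact p = 0.00216, adjusted p = 0.00433). The ratio of *Tbx5* to *Nkx2-5* went from 2.88 to 1.83, a log2 difference of −0.65, with 5 of 6 libraries below all controls (exact p = 0.00433, adjusted p = 0.00577). The balance of the 2 GATA genes was 2.52 in controls and 2.71 in iNICD, a log2 difference of 0.11 (exact p = 0.422, adjusted p = 0.422). Leaving out 1 library gave 0.05 (without control replicate 4) to 0.17 (without control replicate 2) for this difference. Without control replicate 5 the 3 differences that involve *Tbx5* were −0.87, −0.78 and −0.55 in the order given and still passed (adjusted exact p at most 0.0115). These ratios share *Tbx5* and are not independent of each other.

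**Figure D3:**
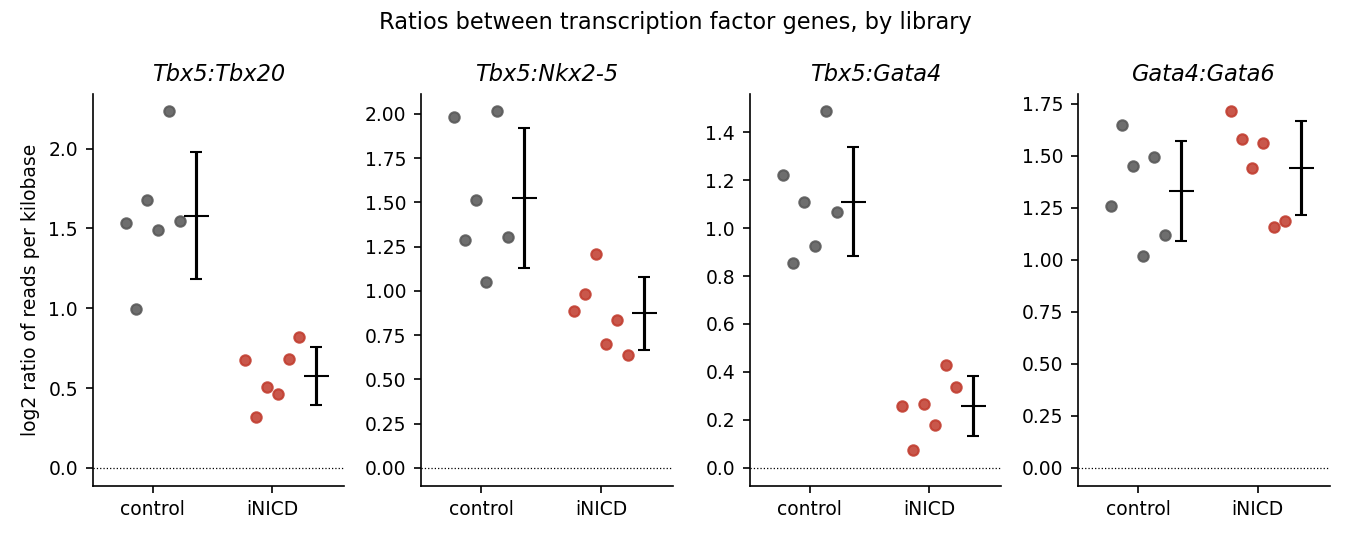
Log2 ratio of reads per kilobase between pairs of transcription factor genes in each control (gray) and iNICD (red) library, with mean and SD; the dotted line marks equal levels. Per kilobase, *Tbx5* exceeded its partner in every library of both groups. The iNICD minus control difference of the mean log2 ratio was −1.002 for *Tbx20* and −0.85 for *Gata4*. Which gene is higher depends on the gene lengths, while this difference does not.

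Both sexes were examined in one model with an interaction. *Tbx5* had a log2 fold change of −0.72 (SE 0.15) in females and −0.69 (SE 0.17) in males, a difference of 0.02 (SE 0.23, edgeR adjusted p = 0.993). *Nkx2-5* had −0.30 in females and 0.29 in males, *Gata6* −0.14 and 0.32, and *Tbx20* 0.20 and 0.59. These 3 interactions had unadjusted edgeR p-values of 0.0397, 0.0456 and 0.0496, a level that 3.70% of all genes reached. None passed adjustment (0.916 each), and 0 of 13541 genes did. There were only 2 male controls, 1 of them replicate 5. For *Tbx5* they had 578 (replicate 5) and 348 CPM, and the iNICD males had 277, 294 and 287 CPM. Without replicate 5 a single male control was left, assumed to vary like the other groups. The interactions of *Nkx2-5*, *Gata6* and *Tbx20* were then 0.59, 0.42 and 0.41, against 0.59, 0.46 and 0.40 with all libraries. Their SEs were larger, at 0.30, 0.24 and 0.21 against 0.25, 0.20 and 0.18. Higher unadjusted p-values therefore do not show that these differences between the sexes went away. In that fit none of these 3 was under 0.05, while *Tbx5* (0.43, unadjusted p = 0.0187) and *Gata4* (0.35, unadjusted p = 0.0143) were (adjusted p = 0.939 for both, edgeR), as were 4.86% of all genes.

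Within the 6 iNICD libraries, the level of *Notch1* and its transgene ran from 2969 to 4069 CPM, and the 9 genes were set against it. *Tbx5* had a Pearson r of −0.49 (exact permutation p = 0.315) and a Spearman rho of −0.66 (p = 0.175, n = 6). With scaling to library totals alone, in place of TMM, r was −0.77. After leaving out the 2 libraries farthest from the median of *Notch1*, r was −0.94 over 4 libraries, too few for a test. The largest r in size was that of *Tbx20*, 0.72 (exact p = 0.107; rho 0.43, p = 0.419), and it turned to −0.29 without the same 2 libraries. No relation of the 9 passed adjustment, with the lowest adjusted exact p at 0.772 for r and 0.788 for rho.

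The genome positions are from GENCODE M21 on mouse build GRCm38. *Tbx5* lies at chr5:119832668-119885219 on the plus strand. The lincRNA gene *Gm43050* (chr5:119828448-119831920, minus strand) starts 748 bases from it in the opposite direction. *Gm43050* had 177 to 348 reads in 5 controls, 39 in control replicate 5 and 378 to 548 in iNICD. The groups did not overlap, as in 3.83% of all tested genes in either direction. All 6 iNICD libraries (15.8 to 22.4 CPM) were above all controls (1.82 to 15.6 CPM), the opposite direction to *Tbx5*. The log2 fold change was 0.71 but imprecise (95% interval −0.07 to 1.49, edgeR adjusted p = 0.331; exact permutation p = 0.00216 for the gene alone). Without control replicate 5 it was 0.49 (adjusted p = 0.161). RefSeq models of *Tbx5* begin further upstream, at position 119796514, and span *Gm43050*. The strand setting of the counting is not given in the sources used here, so that reads of the paired genes might not be fully separated.

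**Figure D4:**
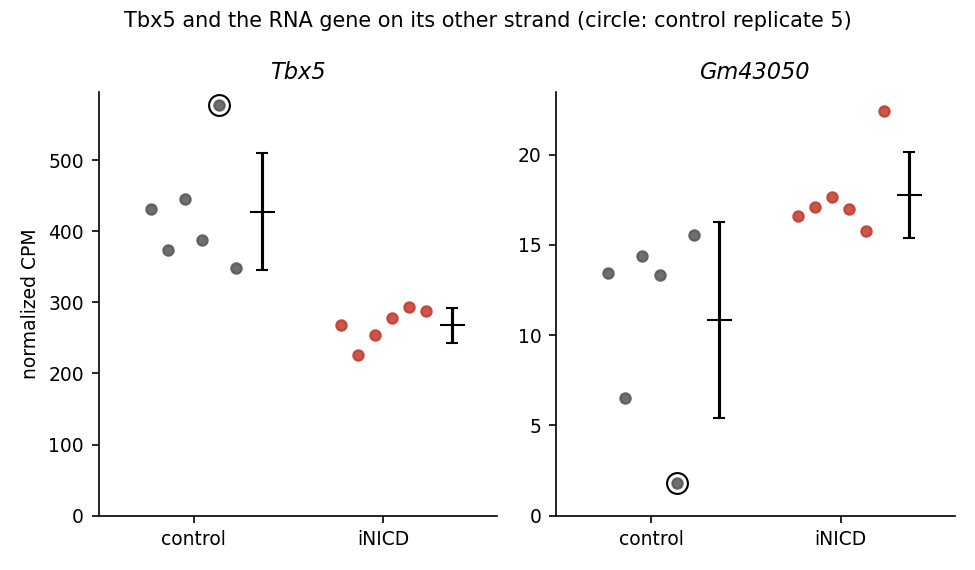
Normalized CPM of *Tbx5* and of the lincRNA gene *Gm43050* in each control (gray) and iNICD (red) library, with mean and SD; the circle marks control replicate 5. That library has the highest *Tbx5* (578 CPM) and the lowest *Gm43050* (1.82 CPM). In both genes the groups do not overlap, as in 3.83% of all tested genes. For *Gm43050* the margin is small, with the highest control at 15.6 and the lowest iNICD library at 15.8 CPM.

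*Tbx20* (chr9:24718138-24774303, minus strand) also has a lincRNA gene in the opposite direction, *Gm29824*, whose start is 2164 bases away. *Gm29824* had 2 to 20 reads in controls and 20 to 40 in iNICD, under the filter of the main test (exact permutation p = 0.00433 for the gene alone). With no filter its log2 fold change was 0.87 (edgeR adjusted p = 0.338). Of the 13 annotated genes that overlap or lie head to head with 1 of the 9, 9 had at most 5 reads in any library. *1010001N08Rik* beside *Gata6* (edgeR adjusted p = 0.499) and *B130024G19Rik* beside *Nr2f2* (adjusted p = 0.725) did not pass.

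To show the sequence at the start of these genes, the 250 bases upstream of the RefSeq start in the table of promoters are printed 5′ to 3′ on the gene's strand for *Tbx20* (chr9:24774304-24774553, minus), *Nkx2-5* (chr17:26841566-26841815, minus) and *Prrx2* (chr2:30845117-30845366, plus), all on GRCm38.p6. *Tbx20* had the highest fold change of the 9, *Nkx2-5* was the one with RBPJ letters, and *Prrx2*, described below, had the highest fold change of the further cardiac factors. For *Nkx2-5* the table holds 1 start, which lies inside the annotated gene; the RefSeq span reaches upstream to position 26844988, and the bases before that outer start were not examined. Capitals mark the letters TGGGAA of RBPJ on either strand.
Tbx20: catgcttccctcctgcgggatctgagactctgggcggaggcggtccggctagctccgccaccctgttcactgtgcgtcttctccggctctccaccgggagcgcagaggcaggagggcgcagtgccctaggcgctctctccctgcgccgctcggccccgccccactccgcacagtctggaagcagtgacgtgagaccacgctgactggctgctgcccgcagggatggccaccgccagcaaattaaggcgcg
Nkx2-5: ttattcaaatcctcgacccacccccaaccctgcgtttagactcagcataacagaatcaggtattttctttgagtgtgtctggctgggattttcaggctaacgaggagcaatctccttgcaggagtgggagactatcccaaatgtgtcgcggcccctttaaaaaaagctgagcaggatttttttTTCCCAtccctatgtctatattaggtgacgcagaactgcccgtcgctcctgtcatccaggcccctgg
Prrx2: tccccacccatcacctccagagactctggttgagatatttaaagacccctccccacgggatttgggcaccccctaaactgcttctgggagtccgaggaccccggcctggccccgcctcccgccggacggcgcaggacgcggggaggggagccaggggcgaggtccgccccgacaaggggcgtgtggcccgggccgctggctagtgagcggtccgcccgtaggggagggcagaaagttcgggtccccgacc
The table of promoters used here held 8 windows of 6 of the 9 genes, from 250 bases before to 50 bases after the start; *Tbx5*, *Gata4* and *Gata6* were not among them. RBPJ letters were found in 1 window, that of *Nkx2-5*, as TTCCCA on the gene's strand from position −67 relative to that inner start. They occur in 25.5% of all 27025 promoters of the table. The HES and HEY E-box CACGTG (7.24% of all promoters) and the HES letters CACGCG (9.36%) were in none of the 8 windows. The T-box letters GGTGTG (18.96%) were in 1 of the 3 windows of *Mef2c*. A match is a description of the letters and not a bound site.

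A longer list of 31 further cardiac transcription factors was set beside the 9 genes, and 26 of them were expressed highly enough to test. Of these, 2 were higher, 1 was lower and 23 did not pass (2.78% and 1.34% of all tested genes were higher and lower), with a median log2 fold change of −0.07 (−0.01 over all genes). *Prrx2*, the paralog of *Prrx1*, rose from 3.25 ± 1.27 to 10.6 ± 0.80 CPM (log2 fold change 1.70, 95% interval 1.20 to 2.20, edgeR adjusted p = 0.000871), with 6 of 6 iNICD libraries above all controls. *Tead1*, the DNA-binding partner of the Hippo pathway factor YAP, rose from 255 ± 30.1 to 349 ± 34.5 CPM (0.45, adjusted p = 0.0131), again with 6 of 6 libraries above. *Zfhx2*, a paralog of *Zfhx3*, fell from 23.4 ± 2.93 to 17.8 ± 1.65 CPM (−0.40, adjusted p = 0.0313). Close to the threshold were *Zfpm2*, a cofactor of GATA4 (0.36, adjusted p = 0.0516), *Srf* (−0.86, adjusted p = 0.0629) and *Etv5* (−0.61, adjusted p = 0.0659). Without control replicate 5 these 3 also passed in the same directions, for 3 higher and 3 lower, where 3.66% of all genes were higher and 2.25% lower. Over the fits without 1 library the list had 2 to 3 higher and 0 to 3 lower genes. *Prrx2* and *Tead1* passed in 12 of these 12 fits and *Zfhx2* in 4, its call being lost without control replicate 1, 2, 3 or 4 or iNICD replicate 1, 3, 5 or 6. The remaining T-box genes *Tbx2*, *Tbx3* and *Tbx18* had log2 fold changes of −0.53, −0.31 and −0.28 (−0.53, −0.21 and −0.31 without control replicate 5) and did not pass (edgeR adjusted p of 0.217, 0.402 and 0.203). *Hand1*, *Irx4* and *Nkx2-6* had no reads in any library.

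The chamber genes that such factors control were examined with the same fit. Of 11 atrial chamber genes, 4 were lower, 0 were higher and 7 did not pass, where 1.34% of all tested genes were lower and 2.78% higher. Their median log2 fold change was −0.54, against −0.01 over all tested genes. *Nppa*, the atrial natriuretic peptide gene and a textbook target of TBX5, NKX2-5 and GATA4, fell by 2.33 on the log2 scale (95% interval −2.94 to −1.72, edgeR adjusted p = 0.000339). *Myl4*, the atrial essential light chain, fell from 7638 ± 463 to 4538 ± 515 CPM (−0.75, adjusted p = 0.00032). *Sln*, the atrial calcium pump regulator sarcolipin, fell by 0.64 (adjusted p = 0.00803) and *Myl7*, the atrial regulatory light chain, by 0.54 (adjusted p = 0.0367). With control replicate 5 left out, these 4 were at −2.25, −0.73, −0.71 and −0.58 in that order and passed. *Myh6*, *Kcnj5* and *Kcna5* had log2 fold changes of −0.03, 0.00 and −0.02. Over the fits without 1 library the count of lower genes was 3 to 6. It was 6 without control replicate 5, with *Dkk3* and *Kcnj3* added, where 2.25% of all genes were lower. *Nppa*, *Myl4* and *Sln* passed in 12 of these 12 fits and *Myl7* in 4, its call being lost without control replicate 1, 3, 4 or 6 or iNICD replicate 1, 2, 3 or 4. Of 5 ventricular chamber genes that could be tested, 0 were called, and levels differed widely within the list. *Irx4* had 0 reads, *Myl2* a mean of at most 1.31 CPM and *Myl3* 1.77 and 1.76 CPM, while *Myh7* had 925 ± 806 CPM in controls (libraries 17.7 to 2151) and 898 ± 822 in iNICD. *Pln* had 975 ± 378 and 807 ± 115 CPM, a log2 fold change of −0.27 (−0.44 without control replicate 5) that passed in neither fit. *Kcnd2*, a potassium channel gene, had 35.0 ± 13.6 and 54.7 ± 6.10 CPM, with 5 of 6 iNICD libraries above all controls (log2 fold change 0.64, 95% interval 0.11 to 1.18, edgeR adjusted p = 0.188).

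A list of 12 genes for rhythm and calcium handling linked to TBX5 shares 4 of its genes with the atrial list. Here 3 were lower (*Nppa*, *Sln* and *Nppb*), 0 were higher and 9 did not pass, beside 1.34% lower and 2.78% higher over all tested genes. *Nppb*, the B-type natriuretic peptide gene, had a log2 fold change of −3.36 (edgeR adjusted p = 0.0397), but without control replicate 5, where it was highest, it was −2.30 and did not pass (adjusted p = 0.0505). Of the 12 fits without 1 library, 3 called it, those without control replicate 3 or 6 or iNICD replicate 5. The ryanodine receptor gene *Ryr2* (0.07), the calcium pump gene *Atp2a2* (−0.04) and the gap junction gene *Gja5* (−0.39) had adjusted p-values of 0.821, 0.822 and 0.593 in edgeR. They were at 0.21, −0.03 and −0.58 without control replicate 5, and none passed (adjusted p of 0.229, 0.879 and 0.200).

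**Figure D5:**
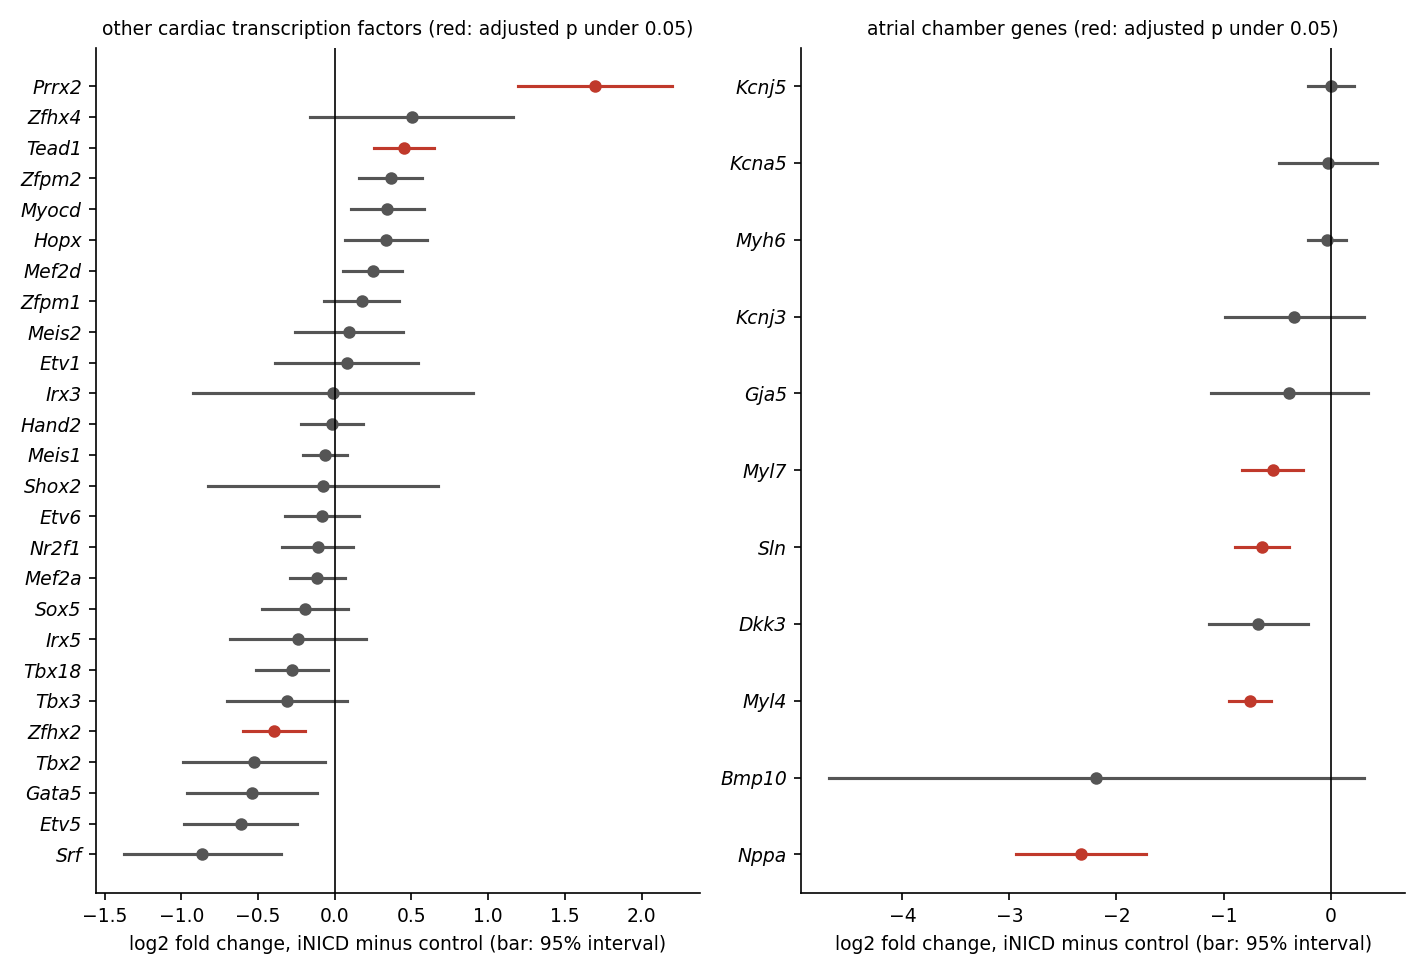
Log2 fold change, iNICD minus control, with 95% intervals for the 26 tested further cardiac transcription factors (left) and the 11 atrial chamber genes (right); red marks an edgeR adjusted p under 0.05. On the left *Prrx2* (1.70), *Tead1* (0.45) and *Zfhx2* (−0.40) are red, and on the right *Nppa*, *Myl4*, *Sln* and *Myl7*.

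Markers of the cell types in LA tissue were read beside these results. Of 6 cardiomyocyte markers 1 was lower, *Tnnt2* (log2 fold change −0.44, edgeR adjusted p = 0.0153), where 1.34% of all tested genes were lower and 2.78% higher. The log2 fold change was negative for 5 of the 6, but *Actn2* turned from −0.12 to 0.10 without control replicate 5. Their summed level was below every control in 4 of 6 iNICD libraries, with medians of 54099 CPM in controls and 50102 in iNICD. Of 6 fibroblast, 5 epicardial, 5 endothelial, 5 smooth muscle and 4 macrophage markers, 0 passed. The summed fibroblast markers, of the cells in which *Prrx1* is best known, were 2130 to 2824 CPM in controls and 2110 to 3035 in iNICD. The summed epicardial markers were 216 to 309 and 139 to 289 CPM, endothelial 657 to 959 and 621 to 748, smooth muscle 298 to 646 and 329 to 523, and macrophage 143 to 203 and 137 to 218. Of the epicardial markers 5 of 5 had a negative log2 fold change (median −0.30), with and without control replicate 5, and the summed level was below every control in 3 of 6 iNICD libraries. The endothelial markers were negative in 5 of 5 (median −0.05, and −0.08 without control replicate 5), with 2 of 6 sums below every control. The fibroblast markers were positive in 5 of 6 (median 0.13, and 0.11 without that library), with 3 of 6 sums above every control and 1 below. Without control replicate 5 the highest control sums were 815 CPM for endothelial, 475 for smooth muscle and 180.2 for macrophage markers, and *Tnnt2* was at −0.46 and passed. Their part in the difference of *Tbx5* was not tested.

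Finally, the genes whose pattern over the 12 libraries was most like that of *Tbx5* were found by the root-mean-square difference of mean-centred log2 CPM. The 3 closest were *Fntb* (0.15), *Pkdcc* (0.15) and *Tead3* (0.16). Their log2 fold changes were −0.51, −0.85 and −0.53.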

How the data were processed

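RNA was measured in 12 LA libraries. The authors removed ribosomal RNA, sequenced stranded single-end reads and deposited raw counts per gene name, without normalization; each count column was matched to a sample by its label. The submitters' processing notes name cutadapt, STAR 2.4.2a, Subread featureCounts and edgeR with mm10, and the table does not say which steps made it. It also holds a gene length in bases from the authors, another unit, used here for RPKM.

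The filter kept the 13541 genes above 1 CPM in 6 or more libraries. They were compared with TMM normalization and the quasi-likelihood test of edgeR 4.0.16 (R 4.3.3), two-sided, at a Benjamini-Hochberg adjusted p of 0.05. Ratios used counts plus 0.5. Exact permutation tests enumerated the 924 arrangements of 12 libraries (scipy 1.17.1). DESeq2 1.42.0, voom of limma 3.58.1, the exact test of edgeR, other normalizations and filters, sex, replicate blocks, each sex alone and each library left out were alternatives.

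Replicates are separate mice, per the labels. The genes, lists and tests were chosen with earlier results of these data known. Of the lists, genes that passed are named, up to 5 each way by lowest p, with a few at high level or close to the threshold; the 3 patterns closest to *Tbx5* and the annotated genes that overlap or start within 5000 bases head to head with a member are named too. Some cardiac genes are not reported here.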

Additional observations from a re-analysis of the deposited data

Results flagged for a closer look

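For *Gata6*, control replicate 4 lay apart above the other controls, at 140 normalized CPM, by the gap test of Dixon at the 95% level. For *Gm43050*, iNICD replicate 6 lay apart above the other iNICD libraries, at 22.4 CPM. Of 34 groups of 6 libraries tested in this way, 2 stood out, and chance alone would give about 1.7.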

How the results depend on the processing

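*Tbx5* kept its direction in all 30 alternative fits, with log2 fold changes of −0.73 to −0.57, and passed in 29. In males only (2 against 3 libraries, with control replicate 5 among them) *Tbx5* was −0.71 and did not pass (edgeR adjusted p = 0.739). *Tbx20* kept its direction in 30 and passed in 2, DESeq2 (0.32) and without control replicate 2, with 0.28 to 0.42 over fits without 1 library. The 7 other genes passed in none, and *Nkx2-5* had the other sign in 19, *Zfhx3* in 15, *Nr2f2* in 9 and *Gata6* in 2. Among these were −0.30 for *Nkx2-5* and −0.14 for *Gata6* in females only. With sex as a covariate and without control replicate 5, an alternative chosen after seeing the data, *Nr2f2* was −0.16.

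Genes higher and lower over all were 377 and 181, 615 and 444 with DESeq2, 280 lower with the exact test of edgeR, 8 and 0 in males only and 304 lower with sex and without control replicate 5. Leaving out 1 library gave 273 to 495 higher and 92 to 304 lower; the most lower genes came without control replicate 5 and the fewest without iNICD replicate 1. Of the 9 genes, 1 was higher with DESeq2, 0 to 1 without 1 library, and 0 were lower in males only. In females only the log2 ratios of *Tbx5* to *Tbx20*, *Nkx2-5* and *Gata4* differed by −0.92, −0.43 and −0.83. The adjusted exact p-values were 0.114, 0.152 and 0.114, but 4 against 3 libraries are too few for an exact p under 0.05. Without control replicate 5, also chosen after seeing the data, the interactions of *Nr2f2* and *Prrx1* with sex moved to −0.14 each. Without the 2 libraries farthest in *Notch1*, r went from 0.72 to −0.29 for *Tbx20*, −0.17 to −0.74 for *Nkx2-5*, 0.52 to −0.25 for *Gata4*, −0.46 to −0.90 for *Gata6*, −0.07 to −0.17 for *Nr2f2*, 0.24 to 0.60 for *Mef2c*, 0.26 to 0.77 for *Prrx1* and −0.20 to 0.48 for *Zfhx3*. Without scaling to length, the ranks in controls were 2 for *Tbx20*, 3 for *Gata4*, 4 for *Mef2c*, 7 for *Prrx1* and 8 for *Nkx2-5*. Per length, *Tbx20* and *Nkx2-5* held ranks 3 to 4 without 1 control. Beyond the smaller number of libraries, the causes were not tested.

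Whether equal replicate numbers mark paired mice was not settled. Correlations of deviations were −0.15 to 0.37 by title number, and 3 of 6 controls correlated best with their own number. By description number the correlations were −0.11 to 0.37, and 2 of 6 controls did so. With a replicate block *Tbx5* was −0.66 by title number (adjusted p = 0.0101) and by description number (adjusted p = 0.0170), and the block changed no call of the 9 genes. Limits include the 2 male controls, control replicate 5, whole tissue and the strand setting of the counting, which is not given.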
